A study of Homo sapiens with 36 samples.

Results

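The untreated state of H820, a human non-small cell lung cancer cell line, was described from its 3 vehicle libraries, out of 36 libraries in the series, and set against the 9 vehicle libraries of H3255, H1975 and A549, with 3 libraries per line. Libraries were taken by their line and vehicle labels, and H820 and the gene lists below were chosen with earlier results of these data known. By its labelled genotype, H820 has EGFR with an exon 19 deletion and T790M. The EGFR of H3255 has L858R, that of H1975 has both L858R and T790M, and that of A549 is wild-type. In every vehicle group, cells received DPBS with magnesium for 24 h in medium with 1% serum and no aptamer, and poly-A RNA was sequenced as pairs of 100 bases. The medium was RPMI for H820, H3255 and H1975 and DMEM for A549, so that for A549 the line and the medium cannot be told apart. Each EGFR genotype is represented by 1 line, so that the genotype and the rest of a line's background cannot be told apart either.

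The EGFR changes in H820 are well known. Exon 19 deletions activate the kinase in the absence of ligand, and T790M lowers the binding of first-generation kinase inhibitors. H820 is also widely used as a line with extra copies of MET, a receptor tyrosine kinase whose signal can replace that of EGFR. Active receptors of this family drive the RAS and MAP kinase cascade, which induces its own brakes, among them the DUSP phosphatases and the Sprouty proteins, and transcription factors of the ETS family.

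Expression was measured as FPKM, fragments scaled by transcript length and by library size, so that levels are per length and can be set beside each other within a library. An exact 0 can be a failed estimate in these tables, because genes that every cell uses are listed at 0 in some libraries, so a gene at 0 is given below as listed at 0 and not as absent. Differences are given on the log2(FPKM + 0.5) scale, which understates the change of genes near 0. Genes with a mean of at least 1 FPKM in any line were tested, 16765 in all, and of these 13729 reached that mean in H820. Set against the median library of the series, the H820 libraries had 0.837 to 0.976 of its depth and those of the other lines 0.590 to 1.39, and absolute depth is unknown. Between 13635 and 13739 genes exceeded 1 FPKM in an H820 library. The H820 libraries differed little from each other, with a median SD over genes of 0.05 on the log2 scale and correlations across genes of 0.984 to 0.985 within the line. Across the same genes, the mean profile of H820 had r = 0.853 with H1975, 0.791 with A549 and 0.776 with H3255, a description over genes that share their libraries. The samples are bulk RNA, in which fewer expressing cells and less RNA per cell cannot be told apart.

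In limma with Benjamini-Hochberg adjustment at 0.05, H820 differed from H3255 in 13998 genes (83.5% of those tested), from H1975 in 13549 (80.8%) and from A549 in 13818 (82.4%). The 3 comparisons share the H820 libraries. Of all genes tested, 42.3% were higher and 41.2% lower than in H3255, 32.9% higher and 47.9% lower than in H1975, and 43.6% higher and 38.8% lower than in A549. The median difference over all genes tested was 0.00 from H3255, -0.13 from H1975 and 0.04 from A549. A second scaling, by medians of ratios, moved the H1975 median to 0.00, so that differences from H1975 stand against a background of -0.13. With so many calls, a gene was called H820-specific only when it differed in the same direction from each of the 3 other lines. This left 5526 genes (33%), of which 2784 were higher in H820 (16.6% of those tested) and 2742 lower (16.4%). In 2914 genes (17.4%) all 3 H820 libraries lay above all 9 others, and in 2824 (16.8%) below them. Differences of at least 1 log2 unit from every other line were found for 788 higher genes (4.7%) and 293 lower genes (1.75%). The same rule gave H3255 3578 higher and 3715 lower genes, H1975 3692 and 1357, and A549 2874 and 3726.

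The same 4 lines were also sequenced after the aptamers, in libraries the calls above did not use. With the 12 libraries of the control aptamer C36 in place of vehicle, 708 of the 788 higher genes (89.8%) and 256 of the 293 lower genes (87.4%) again differed by at least 1 log2 unit from all 3 lines. With the libraries of MinE07, the aptamer against EGFR, these counts were 692 (87.8%) and 237 (80.9%).

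Most transcripts listed as output of MAP kinase signalling were lower in H820 than in every other line. Of 20 genes listed as MAP kinase output, 19 were tested, and 15 of them were H820-specific and lower (78.9%, beside 16.4% of all genes), while none was H820-specific and higher. Of the 19, 4 had a mean under 1 FPKM in H820 and passed the filter through other lines. The median difference of the list was -3.06 from H3255, -2.02 from H1975 and -1.49 from A549. DUSP6 encodes a phosphatase that inactivates ERK. Its level in the H820 libraries was 0.111, 0.126 and 0.0571 FPKM, against 229, 241 and 249 FPKM in H3255, 5.46, 5.42 and 5.41 FPKM in H1975, and 3.82, 3.87 and 3.79 FPKM in A549. No H820 library came near any other library, and DUSP6 was lower by 2.86 log2 units (SE 0.05) than in A549, the nearest line (limma, adjusted p = 2.29e-14). CCND1, which encodes cyclin D1, stood at 8.26, 7.74 and 7.20 FPKM in H820. Its means were 212 FPKM in H3255, 61.4 FPKM in H1975 and 90.6 FPKM in A549, and all 9 of these libraries were above the H820 libraries.

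Further feedback genes were also lowest in H820 and differed in the order of the other lines. SPRY4, a Sprouty inhibitor of the pathway, averaged 0.0841 ± 0.0186 FPKM (SD, n = 3) in H820, 17.4 ± 0.375 FPKM in H3255, 2.04 ± 0.113 FPKM in H1975 and 2.81 ± 0.122 FPKM in A549. DUSP4, a nuclear phosphatase for ERK, averaged 0.0346 FPKM in H820 and between 3.13 and 47.4 FPKM in the other lines. ETV4 and ETV5 are ETS factors induced by ERK. ETV5 was lower in H820 by 2.17, 2.02 and 1.97 log2 units than in H3255, H1975 and A549, and ETV4 by 3.88, 2.10 and 2.84. PHLDA1 averaged 2.40 FPKM in H820 and between 17.6 and 32.1 FPKM elsewhere. DUSP5, SPRY1, SPRED1, SPRED2, EGR1, PHLDA2, IER3 and HMGA2 were also H820-specific and lower, by between 0.22 and 1.49 log2 units from the nearest line. The 4 tested genes that were not were SPRY2, FOSL1, MYC and EPHA4. FOSL1, an AP-1 subunit, had 20.5 ± 1.51 FPKM in H820, 2.09 FPKM in H3255, 104 FPKM in H1975 and 16.3 FPKM in A549. MYC had 73.9 ± 0.745 FPKM in H820 and 77.2 ± 2.26 FPKM in H1975 (adjusted p = 0.105 in limma), and 7.24 and 30.0 FPKM in H3255 and A549. Under medians of ratios MYC became H820-specific and higher, which gave 1 higher gene in the list beside the 15 lower ones.

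Because these genes were low together, the 250 bases upstream of their RefSeq starts (GRCh38.p14) were searched on both strands for the AP-1 motif TGANTCA, the ETS motif CCGGAAG, the EGR motif GCGNGGGCG and the CArG box, the site of serum response factor. The sequence table held 7 of the 15 lower genes. None of the 7 had the AP-1 or the ETS motif, which occur in 6.60% and 8.82% of the 27305 upstream sequences in the table. EGR1 and SPRY4 had the EGR motif (8.25% of all) and EGR1 alone had CArG boxes (1.14% of all). DUSP6, with none of these letters in its window, is shown as the gene of the 7 with the widest gap to its nearest line, and EGR1 and SPRY4 as the 2 with a match. EGR1 was picked after its values were seen. DUSP6 lies on the minus strand at chr12:89352502-89352751, SPRY4 on the minus strand at chr5:142324248-142324497 and EGR1 on the plus strand at chr5:138465229-138465478. Capitals mark the matches, which do not overlap one another, and each sequence runs 5′ to 3′ on the strand of its gene.
DUSP6: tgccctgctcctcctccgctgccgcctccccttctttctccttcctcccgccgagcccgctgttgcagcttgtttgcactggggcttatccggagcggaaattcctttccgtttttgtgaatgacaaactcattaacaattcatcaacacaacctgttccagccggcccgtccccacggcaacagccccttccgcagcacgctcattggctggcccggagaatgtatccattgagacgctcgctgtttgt
SPRY4: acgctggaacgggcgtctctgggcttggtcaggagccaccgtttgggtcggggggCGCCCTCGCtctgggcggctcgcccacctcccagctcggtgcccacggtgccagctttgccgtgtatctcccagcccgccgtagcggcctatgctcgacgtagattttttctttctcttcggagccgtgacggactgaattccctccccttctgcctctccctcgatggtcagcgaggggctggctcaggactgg
EGR1: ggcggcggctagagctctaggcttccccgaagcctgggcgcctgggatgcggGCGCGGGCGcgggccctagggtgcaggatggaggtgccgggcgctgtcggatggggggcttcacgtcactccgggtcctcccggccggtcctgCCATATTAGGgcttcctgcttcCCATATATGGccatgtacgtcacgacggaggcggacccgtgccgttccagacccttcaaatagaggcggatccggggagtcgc
EGR1, a zinc finger factor induced early by ERK, is the member with 2 CArG boxes in this window, and it had the smallest gap of the 3. Its levels were 2.55, 2.32 and 2.47 FPKM in H820 and 3.21, 2.81 and 2.78 FPKM in A549, with means of 16.9 FPKM in H3255 and 8.17 FPKM in H1975. The groups did not overlap, and the difference from A549 was -0.22 (SE 0.06, limma adjusted p = 0.0033).

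At the level of the receptors, EGFR itself was lowest in H820. The H820 libraries had 7.39, 7.56 and 7.67 FPKM, those of A549 19.4, 20.3 and 19.9 FPKM, those of H1975 24.6, 27.8 and 25.9 FPKM, and those of H3255 415, 421 and 420 FPKM. H820 lay below all 9 other libraries, and the difference from A549, the nearest line, was -1.34 (SE 0.04, limma adjusted p = 7.45e-12). ERBB3, the kinase-poor partner receptor that couples to PI3 kinase, was also H820-specific and lower, at 2.62 ± 0.384 FPKM beside 6.66 ± 0.203 FPKM in A549, 8.56 FPKM in H1975 and 28.8 FPKM in H3255. ERBB2 did not pass: its 8.65 ± 0.356 FPKM in H820 overlapped the 9.02 ± 0.373 FPKM of A549 (difference -0.06, SE 0.04, limma adjusted p = 0.251), while H1975 and H3255 had 18.9 and 73.9 FPKM. Around EGFR on chromosome 7, 15 neighbouring genes were tested. Of these, 1 was H820-specific and higher (FKBP9P1) and none lower, beside 16.6% and 16.4% of all genes, and 11 were lower than in H3255 (41.2% of all genes were). Without A549 in the rule, 8 of the 15 were lower than in both remaining lines, as were 26.9% of all genes.

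MET had its highest level in H820. The values were 125, 120 and 121 FPKM in H820, 43.2, 44.3 and 44.1 FPKM in H3255, 52.5, 55.5 and 52.4 FPKM in H1975, and 52.2, 51.2 and 50.6 FPKM in A549. Every H820 library exceeded every other library, by 1.46, 1.18 and 1.24 log2 units over H3255, H1975 and A549 (SE 0.03 each, largest limma adjusted p = 4.08e-12). Of the 7 tested neighbours of MET, CAPZA2, an actin capping subunit on one side of it, was H820-specific and higher, at 33.6 FPKM beside 20.03 to 25.8 FPKM. LSM8 was H820-specific and lower, and MDFIC, TES, CAV1, CAV2 and ST7 were neither. The higher and lower shares were 14.3% each, beside 16.6% and 16.4% of all genes. Among 32 tested receptor tyrosine kinases and ligands outside the ERBB family, MET and ROR1 were H820-specific and higher (6.25% beside 16.6% of all genes) and 7 were lower (21.9% beside 16.4%). The lower ones were MST1R, the receptor related to MET (0.830 FPKM beside 3.20 to 8.81), IGF1R, FGFR2, FGFR3, EPHA2, PDGFA and VEGFA. VEGFA, the main angiogenic ligand, had 5.75 ± 0.0936 FPKM in H820 and between 13.8 and 52.7 FPKM elsewhere. AXL, often high in cells that resist EGFR inhibitors, had 27.96 ± 0.610 FPKM, above H3255 (1.498 FPKM) and H1975 (12.8 FPKM) and below A549 (37.6 FPKM).

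The ERBB ligands were split. Of 17 tested receptors, ligands and feedback inhibitors of the family, 4 were H820-specific and higher and 4 lower, 23.5% each, beside 16.6% and 16.4% of all genes. Among the ligands, EREG (epiregulin) and HBEGF were higher and AREG (amphiregulin) and TGFA were lower. EREG had 55.3, 53.8 and 55.4 FPKM in H820, against 34.0, 27.6 and 30.0 FPKM in A549 and means of 9.49 and 1.69 FPKM in H1975 and H3255. The H820 libraries were above all others, by 0.84 log2 units over A549 (SE 0.07, limma adjusted p = 1.38e-07). AREG, which lies beside EREG on chromosome 4, ran the other way, with 3.13, 2.89 and 2.80 FPKM in H820 and means of 9.82, 8.24 and 37.6 FPKM in H3255, H1975 and A549. The inhibitors LRIG1 and SOCS3 were higher, SOCS3 with 10.3 ± 0.245 FPKM beside 7.18 ± 0.130 FPKM in A549. With the C36 libraries, SOCS3 lost its call (0.07 from A549, adjusted p = 0.256 in limma), and with the MinE07 libraries LRIG1 lost its call (0.02 from H3255, adjusted p = 0.681) and TGFA did (-0.12 from A549, adjusted p = 0.086). ERRFI1, a direct inhibitor of EGFR, was not H820-specific, at 94.6 ± 0.710 FPKM in H820 and 90.3 ± 2.77 FPKM in A549.

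**Figure D1:**
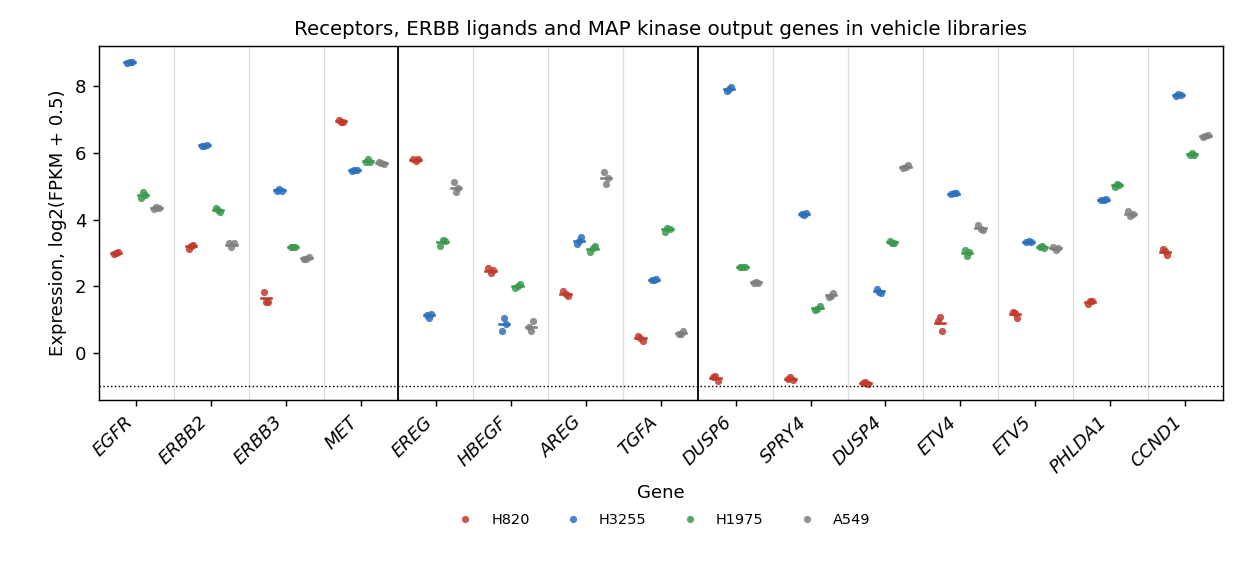
Expression of receptors (left), ERBB ligands (middle) and MAP kinase output genes (right) in the 12 vehicle libraries. The y axis is log2(FPKM + 0.5), points are libraries, short bars are means of 3 and the dotted line is 0 FPKM. H820 lies below the other 3 lines for EGFR and for all 7 output genes and above them for MET and EREG.

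Of 7 tested inhibitors of the cyclin-dependent kinases, 3 were H820-specific and higher (CDKN2A, CDKN2B and CDKN2C) and 2 were lower (CDKN1B and CDKN2D, which like CDKN2A inhibits the cyclin D kinases). The higher share was 42.9% beside 16.6% of all genes and the lower share 28.6% beside 16.4%. CDKN2A, which encodes p16, had 349, 346 and 343 FPKM in H820 and 35.0, 32.7 and 32.9 FPKM in H1975, was listed at 0 in all 3 libraries of H3255, and had 0, 0.0217 and 0 FPKM in A549. H820 exceeded H1975 by 3.35 log2 units (SE 0.04, limma adjusted p = 2.89e-15), and no library of another line reached its level. CDKN2B, the inhibitor beside it, had 16.6 ± 1.13 FPKM in H820 and 6.06 ± 0.127 FPKM in H1975, and 0 to 0.00519 FPKM in the libraries of H3255 and A549. CDKN2C (38.0 FPKM beside 10.2 to 18.9) and CDK6, a target kinase of these inhibitors (9.65 FPKM beside 3.86 to 5.20), were H820-specific and higher as well. Of 7 tested genes at 9p21, the site of CDKN2A, 5 were H820-specific and higher (71.4% beside 16.6% of all genes), among them MTAP, a salvage enzyme of methionine, with 13.1 FPKM beside 0 FPKM in H3255, 6.69 FPKM in H1975 and 2.69 FPKM in A549. DMRTA1 and HACD4 were higher too. FOCAD and KLHL9 at the same site were not H820-specific, although all 7 tested genes were higher than in H1975 (32.9% of all genes were). Of the 5, 1 passed the filter through H820 alone and so had to be higher there, and of the remaining 6 genes 4 were higher.

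Over all 19 tested cell cycle regulators, 4 were H820-specific and higher (21.1% beside 16.6% of all genes) and 6 were lower (31.6% beside 16.4%). The lower ones were CCND1, given above, CDKN1B, CDKN2D, E2F1, RBL1 and RBL2. CDKN1B lost its call under medians of ratios (-0.01 from H1975, adjusted p = 0.772 in limma). Of 24 tested proliferation genes, 11 were lower and none was higher (45.8% beside 16.4% of all genes). PCNA, the sliding clamp of DNA replication, had 33.4, 34.2 and 32.6 FPKM in H820 and means of 103, 106 and 223 FPKM in H3255, H1975 and A549. RRM2, a subunit of ribonucleotide reductase, had 33.0 FPKM beside 57.8 to 104 FPKM. MCM7 of the replicative helicase had 50.5 FPKM beside 85.3 to 151 FPKM, and MCM3, MCM5 and MCM6 were lower too. Genes of mitosis were mixed: AURKB, BUB1, CDK1 and CCNA2 were lower, whereas TOP2A, CCNB1, CDC20, PLK1 and CENPF were not H820-specific. MKI67 lost its call without A549 replicate 2 (adjusted p = 0.0536) or A549 replicate 3 (adjusted p = 0.0527), both against H3255 in limma.

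Markers of the alveolar type 2 cell, the surfactant-making cell from which many lung adenocarcinomas are thought to arise, did not set H820 apart from all other lines. Of 20 tested markers none was H820-specific and higher, and 2 were lower (10% beside 16.4% of all genes), namely ETV5, which is also a MAP kinase output gene, and MFSD2A. Against H3255, 17 of the 20 were lower and 1 higher (41.2% and 42.3% of all genes). Against H1975, 6 were lower and 7 higher (47.9% and 32.9%), and against A549 5 lower and 10 higher (38.8% and 43.6%). In H820, 10 of the 20 had a mean of at least 1 FPKM. MFSD2A lost its call under medians of ratios (-0.14 from H1975, adjusted p = 0.0593 in limma) and turned its direction with the MinE07 libraries (0.16). The summed level of the 24 markers ran from 113 to 120 FPKM in the H820 libraries, from 135 to 138 FPKM in H1975, from 38.0 to 42.4 FPKM in A549 and from 989 to 1012 FPKM in H3255. The surfactant protein genes were at or near 0 in H820 and also in H1975 and A549: of 4 tested, all were lower in H820 than in H3255, none differed by the test from H1975, and 1 was lower than in A549. SFTPA1 was listed at 0 in all 3 H820 libraries, SFTPD in 2 and SFTPC in 2, and SFTPB had 0.0190, 0.0423 and 0.0703 FPKM. NAPSA, the protease that processes surfactant protein B, had 0.582, 0.509 and 0.779 FPKM in H820, above the means of H1975 (0.306 FPKM) and A549 (0.186 FPKM) and below the 160 FPKM of H3255. Its direction from H1975 turned with the C36 libraries (-0.06). SLC34A2, a phosphate carrier of this cell type, had 2.48 FPKM in H820 and 46.9 FPKM in H3255.

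The lung lineage factor NKX2-1 was present in H820 all the same. Its level was 34.2, 36.1 and 35.6 FPKM, between H3255 (71.1, 73.7 and 75.4 FPKM) and H1975 (20.7, 18.7 and 20.2 FPKM), with A549 at 0.0331, 0 and 0.0313 FPKM. The 4 lines did not overlap, and all 3 differences passed the test, so the gene was not H820-specific. SFTA3, which lies beside NKX2-1, had the same order, with 21.5 FPKM in H820, 121 FPKM in H3255, 10.5 FPKM in H1975 and a listing at 0 in A549. Of 29 tested lineage factors 4 were H820-specific and higher (13.8%) and 5 lower (17.2%), shares near the 16.6% and 16.4% of all genes. FOXA2, a pioneer factor of foregut epithelium, had 0.714 ± 0.0386 FPKM in H820 and between 5.92 and 13.4 FPKM elsewhere (difference from H1975 -2.40, SE 0.05, limma adjusted p = 1.83e-13). Its relative FOXA1 was not low, at 25.7 FPKM in H820, 42.7 FPKM in H3255, 8.72 FPKM in A549 and 0.311 FPKM in H1975. CEBPD (6.35 FPKM beside 18.0 to 46.5), CEBPB, ELF3 and the basal cell factor TP63 (0.0282 FPKM beside 0.140 to 8.57) were lower. GATA2 (7.01 FPKM beside 1.08 to 5.11), HNF4G, TBX3 and GATA6 were higher, of which GATA6 lost its call with the C36 libraries (adjusted p = 0.24) and TBX3 did so too (adjusted p = 0.0837), both in limma. The secretory markers AGR2 (0.600 FPKM beside 4.06 to 292) and SLPI were lower, 2 of the 7 tested secretory genes (28.6% beside 16.4% of all genes). Of these 7, 6 had a mean under 1 FPKM in H820 and passed the filter through other lines.

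H820 combined epithelial and mesenchymal transcripts, as did H1975 and A549. Of 32 tested epithelial genes 1 was H820-specific and higher, SPINT2, and 5 were lower (CDH1, DSP, PKP3, CLDN2 and AP1M2). The lower share, 15.6%, was near the 16.4% of all genes, and the higher share was 3.13% beside 16.6%. CDH1, which encodes E-cadherin, had 21.1, 22.2 and 22.3 FPKM in H820, 33.8, 34.7 and 36.6 FPKM in H1975, 32.6, 34.0 and 33.8 FPKM in A549, and 126 to 128 FPKM in H3255. H820 was lowest without overlap, by 0.60 log2 units from A549 (SE 0.04, limma adjusted p = 8.58e-09). EPCAM was intermediate, with 25.7 FPKM in H820, 5.81 FPKM in A549, 97.4 FPKM in H1975 and 214 FPKM in H3255. Without A549 in the rule, 20 of the 32 epithelial genes were lower in H820, beside 26.9% of all genes. Against A549 alone, by contrast, 24 of the 32 were higher and 6 lower, beside 43.6% and 38.8% of all genes. DSG2, a desmosomal cadherin, was listed at 0 in all 3 libraries of H3255 and had 24.7 FPKM in H820. PKP3 lost its call without A549 replicate 3 (adjusted p = 0.0662) or without H820 replicate 3 (adjusted p = 0.0522), and CLDN2 did so without H3255 replicate 1 (adjusted p = 0.0552), all in limma. The keratins KRT7, KRT10 and KRT17 were lower, KRT7 with 214 ± 8.34 FPKM beside 364 to 702 FPKM.

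Among 27 tested mesenchymal genes, 8 were H820-specific and higher (29.6% beside 16.6% of all genes) and 1, FN1, was lower. Of the 8, 4 passed the filter through H820 alone and so had to be higher there. Against H1975, 16 of the 27 were lower and 10 higher, while 47.9% of all genes were lower and 32.9% higher. Against A549 6 were lower and 19 higher (38.8% and 43.6% of all genes), and against H3255 3 lower and 23 higher (41.2% and 42.3%). The summed level of the list was 1038 to 1052 FPKM in H820, 1543 to 1576 FPKM in H1975 and 946 to 980 FPKM in A549. In H3255 it was 77.7 to 80.9 FPKM. CDH2, which encodes N-cadherin, had 13.4, 13.2 and 13.9 FPKM in H820, was listed at 0 in H3255, and stayed between 0.0378 and 0.511 FPKM in the libraries of H1975 and A549. MMP2, a gelatinase, had 30.0, 30.7 and 31.6 FPKM in H820 and at most 0.269 FPKM in any other library, a difference of 5.47 log2 units from A549 (SE 0.08, largest limma adjusted p over the 3 lines 2.24e-14). COL6A1 had 48.6 FPKM beside 14.3 FPKM in H1975, 1.05 FPKM in A549 and 0.176 FPKM in H3255. COL6A2, FSTL1, ZEB2 and TWIST1 were higher as well. TWIST1 had 2.83 FPKM in H820 and was listed at 0 in all libraries of H3255 and H1975. CALD1 also counted, but its 48.5 FPKM stood close to H1975 (38.9 FPKM) and A549 (40.02 FPKM), and it was listed at 0 in all 3 libraries of H3255. That 0 may be a failed estimate, in which case the call against H3255 does not stand. VIM and ZEB1 were not H820-specific: VIM had 298 ± 3.64 FPKM in H820, 657 and 363 FPKM in H1975 and A549 and 6.25 FPKM in H3255, and ZEB1 had 1.91 FPKM beside 2.97, 3.94 and 0.00486 FPKM.

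Matrix transcripts can also come from other cells, and their markers were read in the same libraries. None of 7 endothelial markers and 2 of 11 leukocyte markers reached 1 FPKM in any line. The summed level of the endothelial list was 0.230 to 0.302 FPKM in H820, and PTPRC, which encodes CD45, had 0.0196 FPKM. Of 9 fibroblast markers 3 were tested, and LUM (lumican) was H820-specific and higher, with 38.3, 35.4 and 38.3 FPKM against at most 0.139 FPKM in any other library. LUM passed the filter through H820 alone and so had to be higher there. Of the remaining 2 tested markers none was H820-specific and higher, beside 16.6% of all genes. Of the other listed markers, COL1A2, COL3A1 and DCN had 0.00779, 0.00955 and 0.00619 FPKM in H820, and COL1A1 had 0.747 FPKM. Without a filter on low values, 3 of the 9 fibroblast markers were H820-specific and higher, as were 4612 of 43502 genes. The summed fibroblast list, 37.0 to 39.9 FPKM in H820 and 12.02 to 13.4 FPKM in H1975, was nearly all LUM in H820. The summed leukocyte list was 2.80 to 3.29 FPKM in H820 and 4.95 to 5.26 FPKM in H1975. The part of these markers in the mesenchymal calls was not tested.

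**Figure D2:**
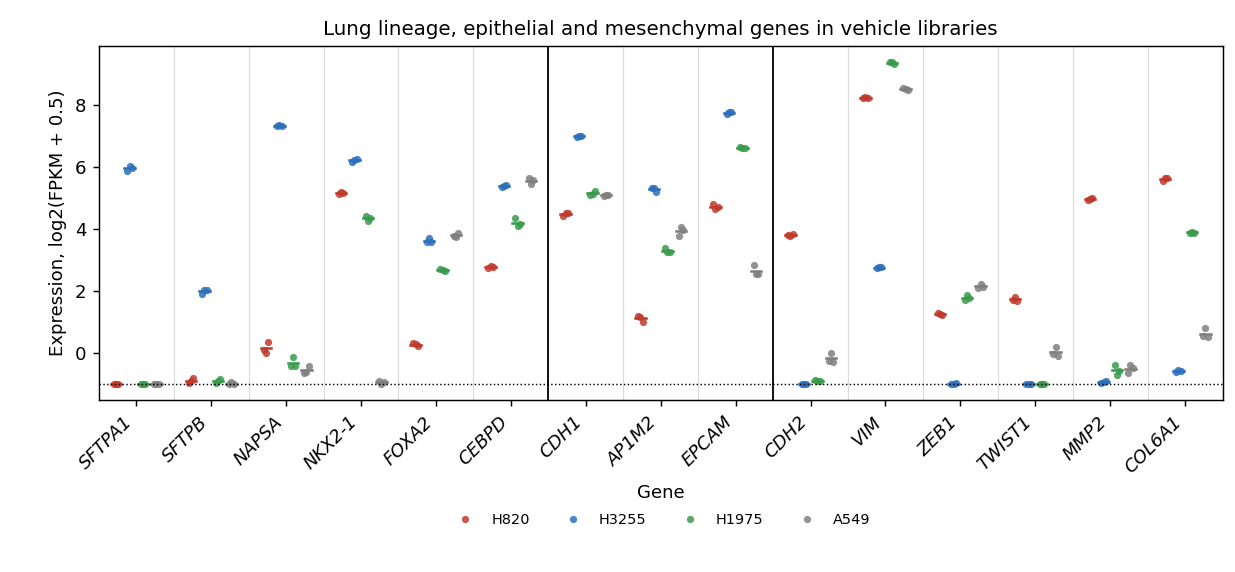
Expression of lung lineage genes (left), epithelial genes (middle) and mesenchymal genes (right) in the 12 vehicle libraries. The y axis is log2(FPKM + 0.5), points are libraries, short bars are means of 3 and the dotted line is 0 FPKM. In H820, SFTPA1 is listed at 0 and NKX2-1 lies between H3255 and H1975. H820 is lowest for CDH1 and AP1M2, and is highest for CDH2, TWIST1, MMP2 and COL6A1.

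HOX genes, which encode position along the body axis and are kept as a memory in cultured cells, were higher in H820 in part. Of 39 HOX genes, 28 were tested, and 15 of these were H820-specific and higher (53.6% beside 16.6% of all genes), with none lower. The filter let in a gene through any line, and 6 of the 28 had a mean under 1 FPKM in H820. Another 6 passed through H820 alone and so had to be higher there, and of the remaining 22 genes 9 were H820-specific and higher. The calls fell in the A cluster (6 of 8 tested) and the C cluster (6 of 8), and less so in the B cluster (2 of 8) and the D cluster (1 of 4). HOXC10 had 10.8, 10.6 and 11.2 FPKM in H820, 0.00982, 0 and 0 FPKM in H3255, 0.899, 0.865 and 1.06 FPKM in H1975, and 0.690, 0.646 and 0.679 FPKM in A549. H820 stood alone at a high level, 2.98 log2 units above H1975 (SE 0.06, limma adjusted p = 1.34e-13). HOXC13 had 10.5 ± 0.0301 FPKM beside 0.365 to 1.93 FPKM, and HOXC11 and HOXC12, both under 0.1 FPKM in every other line, had 2.92 and 1.06 FPKM. HOXA5 had 10.0 FPKM beside 3.77 FPKM in A549 and 0.449 and 0.508 FPKM in H3255 and H1975. For HOXA3, A549 came close (9.61 FPKM beside 11.9 FPKM in H820, difference 0.29, limma adjusted p = 0.000669). HOXB7 showed no such pattern, with 10.8, 11.4 and 11.6 FPKM in H820, H3255 and A549 and 0.0478 FPKM in H1975. When only genes with a mean of at least 1 FPKM over the 12 libraries were tested, 10 of 17 HOX genes were H820-specific and higher.

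**Figure D3:**
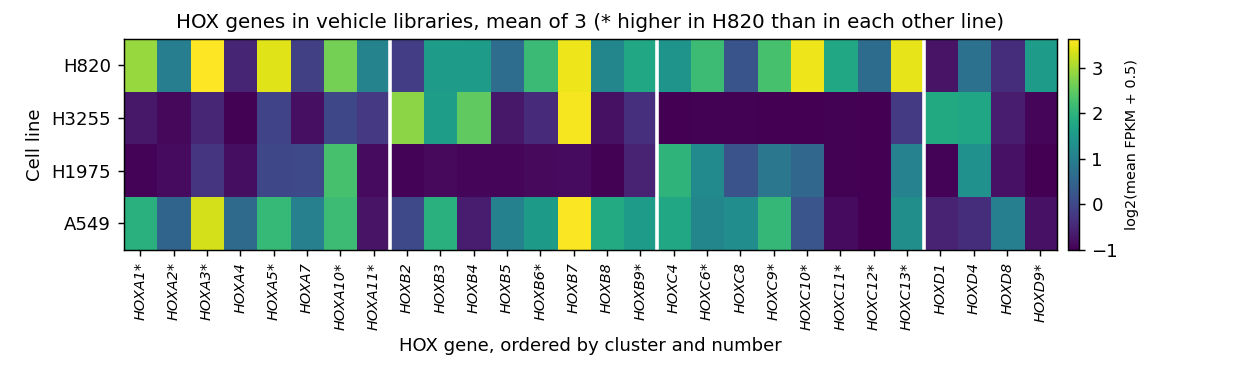
Mean expression of the 28 tested HOX genes in the 4 lines, 3 vehicle libraries each. Colour is log2(mean FPKM + 0.5), white bars separate the A, B, C and D clusters, and asterisks mark the 15 genes higher in H820 than in each other line, 12 of them in the A and C clusters.

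Of 31 tested genes of the WNT, BMP and TGF-beta pathways, 7 were H820-specific and higher (22.6% beside 16.6% of all genes) and 6 lower (19.4% beside 16.4%). Of the 7, 2 passed the filter through H820 alone and so had to be higher there, and of the remaining 29 genes 5 were higher. Another 9 of the 31 had a mean under 1 FPKM in H820 and passed through other lines. WNT5B had 38.4, 37.6 and 38.2 FPKM in H820 and at most 2.31 FPKM in any other library. TGFB2 had 34.3 ± 1.38 FPKM beside 0.462 FPKM in H3255, 6.84 FPKM in H1975 and 4.60 FPKM in A549. WNT10A, FZD7, DKK3, SMAD7 and SMAD9 were higher, and WNT7B, FZD8, TCF7, ZNRF3 and ID1 were lower. GDF15, a stress-induced ligand of the same family, had 0.691, 0.769 and 0.888 FPKM in H820 and a mean of 245 FPKM in H3255, 14.9, 13.6 and 13.5 FPKM in H1975, and 102, 99.8 and 99.4 FPKM in A549. The H820 libraries lay far below the rest (difference from H1975 -3.50, SE 0.06, limma adjusted p = 3.27e-14).

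Targets of NRF2, the regulator of antioxidant enzymes, were lower in part. Of 25 tested targets 11 were H820-specific and lower (44.0% beside 16.4% of all genes) and none was higher. Of the 25, 8 had a mean under 1 FPKM in H820 and passed the filter through other lines. NQO1, a quinone reductase, had 37.9, 35.99 and 36.2 FPKM in H820, 138, 151 and 143 FPKM in H3255, 107, 99.3 and 102 FPKM in H1975, and 564, 534 and 543 FPKM in A549. The H820 libraries were lowest without overlap (difference from H1975 -1.47, SE 0.04, limma adjusted p = 6.72e-12). AKR1C3 had 0.384 FPKM beside 9.81 to 562 FPKM, and SLC7A11, the cystine carrier, 1.43 FPKM beside 3.29 to 24.4 FPKM. AKR1C1, AKR1C2 and AKR1C3 are near-identical neighbours among which reads can be split, so their separate levels are uncertain. A549 is known for an inactive KEAP1, the brake on NRF2, and 24 of the 25 targets were lower in H820 than in A549 (38.8% of all genes were). Without A549 in the rule 11 targets were lower (26.9% of all genes were) and 7 higher (21.7% of all genes were). One of the 7 was TXNRD1, with 327 FPKM in H820, 46.1 FPKM in H3255 and 103 FPKM in H1975. Interferon-stimulated genes gave 3 lower (RIGI, CMPK2 and USP18) and none higher of 27 tested (11.1% lower beside 16.4% of all genes), and CMPK2, under 0.02 FPKM in H820, lost its call when any single H820 library was left out (adjusted p between 0.0569 and 0.0864 in limma).

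Apart from the lists, the genes with the widest gap to all 3 other lines were led by POU2F2-AS2, GAL, LUM, MMP2, BHMT2, FLNC, PICSAR, TIMP3, CEACAM16-AS1 and APOE. GAL, which encodes the neuropeptide galanin, had 80.1, 88.9 and 74.8 FPKM in H820 and at most 0.437 FPKM in any other library (6.56 log2 units over A549, SE 0.08, limma adjusted p = 2.19e-15). FLNC, a filamin of muscle, had 72.5, 77.2 and 75.4 FPKM beside 2.36 FPKM in H1975 and under 0.05 FPKM in each other library. APOE, a lipid carrier, had 92.4 ± 2.26 FPKM beside 1.99 to 4.64 FPKM, and TIMP3, an inhibitor of metalloproteases, 12.7 ± 0.178 FPKM beside at most 0.134 FPKM. POU2F2-AS2 had 127, 124 and 127 FPKM and at most 0.0316 FPKM elsewhere, but whether reads were counted by strand is not given in the sources used here, so this antisense gene and CEACAM16-AS1 cannot be told apart from their partners. CST7, ADAMTSL1, FABP6 and the glutamate carriers SLC1A3 and SLC1A7 completed the 15. Of the 2784 higher genes, 524 had a mean under 1 FPKM in all 3 other lines.

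At the other end stood SLC2A3, SEMA3C, ZNF22, AKR1C3, NR2F1, GDF15, QDPR, CRIP1 and PKIB. SLC2A3, which encodes the glucose carrier GLUT3, had 0.00573, 0.0361 and 0.00736 FPKM in H820 and means of 8.05, 12.1 and 65.3 FPKM in H3255, H1975 and A549. NR2F1, a nuclear receptor, had 0.190 FPKM beside 7.55 to 19.7 FPKM. SEMA3C, a secreted semaphorin, had 0.871 FPKM beside 19.1 to 25.6 FPKM, and QDPR, which recycles tetrahydrobiopterin, had 0.0735 FPKM beside 5.86 to 14.8 FPKM. Of the 2742 lower genes, 568 had a mean under 1 FPKM in H820. The mitochondrial genes ATP8, COX3 and ATP6 were listed at 0 in all H820 libraries and at 3765 to 15234 FPKM in the libraries of the other lines. Their neighbour COX2 had 19401 FPKM in H820, and an exact 0 in such a gene can be a failed estimate, so no fold is given. COX1 was likewise listed at 0 in 2 of the 3 A549 libraries.

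The H820-specific genes were unevenly spread over the chromosomes. Over 12578 tested protein-coding genes placed by RefSeq, 16.9% were H820-specific and higher and 18.6% lower. On chromosome 8 the share of higher genes was 44.7% (195 of 436), followed by chromosomes 21 (32.8%), 4 (26.2%) and 1 (25.3%). Shares of lower genes were greatest on chromosomes 20 (37.7%, 130 of 345), 16 (33.9%), 11 (28.7%) and 22 (27.9%), and chromosome 22 had 3.45% higher genes. These shares are descriptions, since neighbouring genes are not independent. Leaving out any 1 library kept the chromosome 8 count between 192 and 199 and the chromosome 20 count between 127 and 130, and medians of ratios gave 205 and 123.

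**Figure D4:**
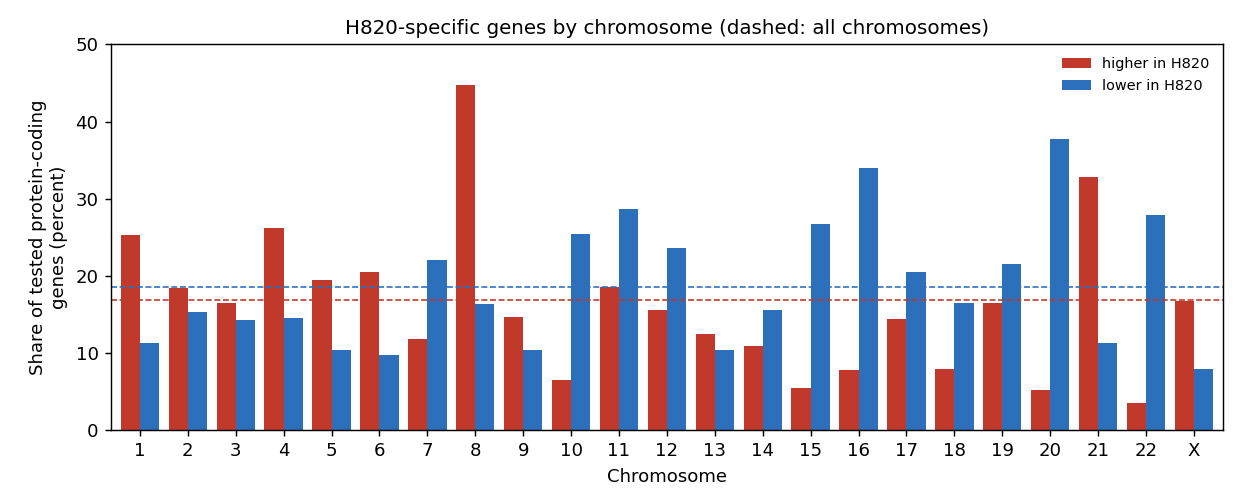
Share of tested protein-coding genes on each chromosome that were higher (red) or lower (blue) in H820 than in each of the 3 other lines, in percent of the genes tested there. Dashed lines are the shares over all chromosomes, 16.9% and 18.6%, and chromosomes 8 and 20 show the greatest higher and lower shares.

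In blocks of 20 tested genes in chromosomal order, the 2 arms of chromosome 8 differed. In the first 5 blocks, from FBXO25 to RBPMS, none of the 100 genes was H820-specific and higher, and between 7 and 14 of 20 were lower. In the last 3 blocks, from AGO2 to C8orf33, 15 of 20, 18 of 20 and 35 of 36 genes were higher, and the last of these had median differences of 1.73, 2.03 and 1.43 log2 units from H3255, H1975 and A549. RPL8 and MAF1, both in that last block, were picked after their values were seen. RPL8, a ribosomal protein gene, had 3866, 3886 and 3943 FPKM in H820 and means of 779, 951 and 1234 FPKM in H3255, H1975 and A549. MAF1, a repressor of RNA polymerase III, had 218 FPKM beside 27.3 to 40.5 FPKM. MYC lies further up the same arm and, as given above, was not H820-specific. On chromosome 19, the block from APOE to OPA3 held 18 higher genes of 20 and that from ELSPBP1 to DBP 17 of 20, whereas the block from RPL28 to ZNF582 held 15 lower genes. The first block of chromosome 17, from RPH3AL to TLCD2, held 17 higher genes of 20, and 2 adjoining blocks of chromosome 20, from RRBP1 to THBD and from NXT1 to BCL2L1, held 16 lower genes each. FOXA2 and SLPI, given above as lower, lie on chromosome 20, as do E2F1, RBL1, PCNA, CEBPB and ID1. No DNA copy number was measured, so the part of gene dosage in these differences was not tested.

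**Figure D5:**
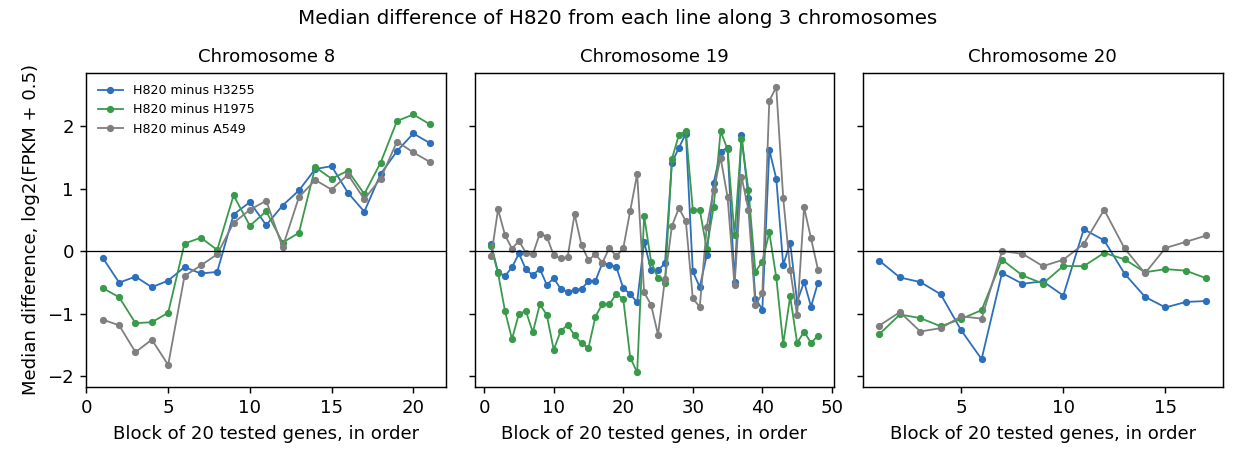
Median difference of H820 from each other line (y axis, log2(FPKM + 0.5)) in consecutive blocks of 20 tested protein-coding genes (x axis, block number from the start of the chromosome) on chromosomes 8, 19 and 20. On chromosome 8 all 3 comparisons are below 0 in the first 5 blocks and between 1.43 and 2.03 in the last.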

How the data were processed

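Poly-A RNA of the vehicle cultures was sequenced in 3 libraries per line, which the series record calls biologically independent experiments. The authors deposited 1 table of FPKM values per library. HISAT2, Cuffdiff and the build GRCh38.p12 are named per the submitters' processing notes, with no versions, and whether reads were counted by strand is not given in the sources used here. The 66366 named genes were kept, with numbered copies as separate entries. Since FPKM are not counts, log2(FPKM + 0.5) was fitted with limma 3.58.1 (R 4.3.3) over the 12 vehicle libraries, with trend and robust moderation. Genes with a mean of at least 1 FPKM in any line were tested, and p-values were adjusted by Benjamini-Hochberg over all of them. The scripts were tested on simulated data. Tables and figures used Python 3.11.15, pandas 2.3.3, numpy 2.4.6 and matplotlib 3.10.9.

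Named genes were the 15 highest and 12 lowest H820-specific genes by their smallest absolute difference without overlap, up to 6 specific genes per list and direction, and a set of receptors and lineage genes; others are named to complete a list. The members and lists were chosen with earlier results of these data known. Alternatives varied the pseudocount, filter, scaling, moderation, threshold, entries, libraries and lines. Summing numbered copies, and leaving out genes at 0 in a whole line, were chosen after seeing the data.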

Additional observations from a re-analysis of the deposited data

How the results depend on the processing

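Under most alternatives the counts stayed within 1.5 times their reported values. A pseudocount of 0.1 gave 456 genes lower by at least 1 log2 unit in place of 293. Without a filter on low values, 20771 genes differed from A549 and 4612 were H820-specific and higher. Without A549 in the rule, 4508 genes were lower and 757 lower by at least 1, since fewer lines had to be passed. Leaving out 1 library at a time gave 13655 to 14153 genes called against H3255, 13170 to 13721 against H1975 and 13452 to 13928 against A549, with 2665 to 2831 specific genes higher, 2603 to 2757 lower, 777 to 803 higher by at least 1 and 285 to 302 lower by at least 1. Medians of ratios raised the higher share of calls against H1975 from 40.69% to 49.53% and gave 3159 specific genes higher and 2476 lower. The deviations of same-numbered libraries had r from -0.047 to 0.086, and those of differently numbered libraries from -0.122 to 0.0885. No shared effect was seen, but with 3 libraries per line this cannot exclude that the numbers pair the samples. With the replicate block 2799 genes were higher and 2735 lower. Over 170 named genes and 4744 recomputed values, 4687 kept their side of the threshold, 38 lost the call, 13 gained it and 6 turned direction. A turn was counted only where the reported difference from the nearest line had passed the test. All 13 gains came without A549 in the rule. The 6 turns were VOPP1 from H1975 under medians of ratios (0.10) and with the MinE07 libraries (0.016), NAPSA from H1975 with C36 (-0.064), and, with MinE07, MFSD2A (0.16) and CAV2 (0.058) from H1975 and LIF (0.068) from H3255. The cause of these changes was not tested. Absolute depth is unknown, so levels near 0 FPKM carry no limit.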
